A study of Mus musculus with 9 samples.

Results

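The transcripts of 38 genes that drive the cell cycle and copy DNA were compared between quadriceps libraries of mice labelled wild type and mice labelled Il17ra-/- after volumetric muscle loss, an injury made by surgical removal of a piece of the muscle. The 38 genes were chosen by symbol, through the GENCODE M21 annotation, from the 55536 gene identifiers that were counted in each library. They were read as 16 S-phase members, which prepare or carry out DNA replication, 16 mitotic members, which act from the G2 phase to cell division, and 6 G1 cyclins and kinases.

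Bulk RNA sequencing gave 9 libraries from C57BL/6 mice, 4 labelled wild type (WT1 to WT4) and 5 labelled Il17ra-/- (Il17ra-/- 1 to 5), a knockout of a receptor subunit for interleukin-17 cytokines. All 9 carried the injury, and genotype was the only label that differed between them. The sample characteristics gave an age of 6 weeks, saline as the material and a harvest 1 week post surgery, whereas the extraction protocol named PCL, without saying what it is, and a collection 6 weeks after surgery. Which of these holds could not be settled. The design text spoke of 3 animals per genotype, the labels named neither the allele nor the deleted exons, and no label tied a library to an animal, litter or day. The p-values below therefore measure only the spread between these libraries, which may be technical.

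A dividing cell passes from G1 to S phase when D-type cyclins with Cdk4 or Cdk6, and then E-type cyclins with Cdk2, inactivate the retinoblastoma proteins and release E2F factors, which switch on replication genes. Genes for mitosis are switched on later, through MuvB complexes that bind a short promoter element called the cell cycle genes homology region (CHR), often beside CCAAT boxes bound by NF-Y. In regenerating muscle the dividing cells include satellite cells, the Pax7-expressing muscle stem cells, and the cells of connective tissue, vessels and the immune system, whereas mature muscle fibres have left the cycle.

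Promoter letters are shown for members of both phases, and their part in the levels below was not tested. RefSeq windows on GRCm38.p6, from 250 bases before to 50 bases after an annotated start, were matched to 31 of the 38 members (33 windows) and to 27025 genes in all (32851 windows). The search covered both strands. TTTGAA, the CHR letters, stood in 11 of 14 mitotic members with a window, in 1 of 13 S-phase members (Mcm2), in 0 of 4 G1 members and in 20.2% of all genes. CCAAT stood in 13 of 14 mitotic members, 8 of 13 S-phase members, 2 of 4 G1 members and 41.1% of all genes. E2F-type letters were searched in 4 forms, TTGGCGC as the first form, TTCCCGC as the next form, then the form TTCGCGC, and lastly the form TTGCCGC. At least 1 form stood in 8 of 13 S-phase members, 3 of 14 mitotic members (Ccnb1, Cdk1 and Mki67), 1 of 4 G1 members (Cdk2) and 10.9% of all genes. E2F-type letters overlapped CCAAT in 148 windows, and TTTGAA overlapped another motif in 47. A match describes these letters and shows no binding.

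The first 3 sequences below are the 250 bases before the RefSeq start of mitotic members, 5′ to 3′ on the gene's strand, with TTTGAA or its reverse complement in capitals. Cdk1 lies at chr10:69352913-69353162, minus strand, Top2a at chr11:99024190-99024439, minus strand, and Mki67 at chr7:135716380-135716629, minus strand. Each window held 2 copies, and the copy nearest the start began 15 bases before it in Cdk1, 23 in Top2a and 98 in Mki67.
Cdk1: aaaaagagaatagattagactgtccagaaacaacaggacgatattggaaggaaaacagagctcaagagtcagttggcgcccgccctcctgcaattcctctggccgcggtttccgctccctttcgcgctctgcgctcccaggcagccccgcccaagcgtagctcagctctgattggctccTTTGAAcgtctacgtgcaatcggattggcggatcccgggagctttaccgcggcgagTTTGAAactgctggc
Top2a: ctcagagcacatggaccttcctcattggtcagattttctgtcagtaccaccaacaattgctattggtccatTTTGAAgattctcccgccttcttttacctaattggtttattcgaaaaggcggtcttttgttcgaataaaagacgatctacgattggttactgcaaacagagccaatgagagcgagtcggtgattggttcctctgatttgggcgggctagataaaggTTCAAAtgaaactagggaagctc
Mki67: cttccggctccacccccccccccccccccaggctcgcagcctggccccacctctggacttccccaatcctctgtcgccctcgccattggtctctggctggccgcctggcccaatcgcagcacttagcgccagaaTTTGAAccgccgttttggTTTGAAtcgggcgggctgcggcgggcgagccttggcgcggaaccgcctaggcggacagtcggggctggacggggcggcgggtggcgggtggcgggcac

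The same stretch is shown for 2 S-phase members that code for subunits of the replicative helicase, with E2F-type letters of either strand in capitals. Mcm5 lies at chr8:75109259-75109508, plus strand, with 3 matches, and Mcm6 at chr1:128359706-128359955, minus strand, with 4. Matches that overlap run together in capitals.
Mcm5: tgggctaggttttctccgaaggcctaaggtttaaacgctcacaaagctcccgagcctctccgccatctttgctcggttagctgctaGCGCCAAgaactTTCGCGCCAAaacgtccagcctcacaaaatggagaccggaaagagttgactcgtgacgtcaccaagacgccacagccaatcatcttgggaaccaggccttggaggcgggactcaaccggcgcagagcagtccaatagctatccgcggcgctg
Mcm6: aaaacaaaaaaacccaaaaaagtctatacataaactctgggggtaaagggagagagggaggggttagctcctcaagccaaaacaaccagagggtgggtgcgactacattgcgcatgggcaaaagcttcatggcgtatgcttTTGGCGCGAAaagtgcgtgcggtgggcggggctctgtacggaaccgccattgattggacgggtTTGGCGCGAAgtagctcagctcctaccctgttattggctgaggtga

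The libraries held 31.3 to 46.4 M (mega) counts, with 35.3 ± 2.75 M (SD, n = 4) labelled wild type and 41.6 ± 4.52 M (SD, n = 5) labelled Il17ra-/- (two-sided exact permutation p = 0.0556, where 0.0159 is the smallest possible). Levels are given in CPM, counts per M counts after scaling of library sizes. Il17ra, the gene named in the label, was at 75.8, 107, 85.3 and 119 CPM in WT1 to WT4 and at 199.6, 185, 181, 284 and 191 CPM in Il17ra-/- 1 to 5, which is higher (log2 fold change 1.11, edgeR adjusted p = 0.00208). This goes against a lost transcript. Since counts cover the whole gene and the deleted exons are not named, they cannot check the label, and all groups below are called by their labels. WT2 stood apart on the first principal component of all genes (34.3% of the variance, 139 against -30.7 to 0.26 in the others) and had the fewest genes with a count, 17256. Il17ra-/- 1 stood apart on the next component (17.4%).

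The muscle label was checked against markers. Fibro-adipogenic markers had the highest sum of the 8 marker lists in every library, far above that of muscle fibre markers. Sums over different genes do not measure shares of cells. The sums of muscle fibre, satellite cell, pericyte and leukocyte markers did not overlap between the labels, whereas those of the other lists did. Summed over 8 muscle fibre markers, levels were 997 to 2546 CPM in WT1 to WT4 and 2858 to 3854 CPM in Il17ra-/- 1 to 5 (3 of 8 called higher), led by Acta1. Fibro-adipogenic markers summed to 40629 to 54860.5 CPM over both groups (1 of 8 lower), led by Col3a1. Satellite cell and myoblast markers summed to 129 to 177 CPM and 225 to 262 CPM (2 of 8 higher, Pax7 and Cdh15), and pericyte and smooth muscle markers to 1478 to 1712 CPM and 2273 to 2975 CPM (5 of 7 higher). Leukocyte markers summed to 25.8 to 43.4 CPM and 13.7 to 21.7 CPM (8 of 15 tested, Cd68 lower). The pan-leukocyte gene Ptprc did not exceed 0.461 CPM in any library, and Itgam, Cd3e and S100a8 were at 0 in 7 or more of the 9. Adipocyte markers summed to 16.3 to 37.0 CPM and 32.6 to 103 CPM (1 of 6 higher), endothelial markers to 263 to 456 CPM and 301 to 379 CPM (0 of 7), and Schwann cell markers to 211 to 325 CPM and 167 to 229 CPM (0 of 5). The part of these cell types in the results below was not tested. In bulk RNA, fewer cells of a type and less RNA per cell cannot be told apart.

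All 38 members had enough counts to be tested, and none was called at an adjusted p under 0.05. Of the 16039 genes tested with edgeR's quasi-likelihood test, 491 (3.06%) were called, 217 higher (1.35%) and 274 lower (1.71%) under the label Il17ra-/-. At an unadjusted p under 0.05 stood 4 members, 10.5% of the 38 against 16.4% of all genes tested. Of these, 2 were higher (8.13% of all genes) and 2 lower (8.27%). All 4 were S-phase members, 25% of those 16, and no mitotic or G1 member was among them. DESeq2 called 2 of the 38, Pcna and E2f1, where it called 7.58% of all genes with an adjusted p. Exactly 19 members had log2 fold changes (labelled Il17ra-/- minus labelled wild type) above 0 and 19 below, where 50.3% of all genes tested lay below. The median was 0.22 for S-phase members, -0.13 for mitotic members and -0.06 for G1 members, where all genes tested had -0.0027.

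**Figure D1:**
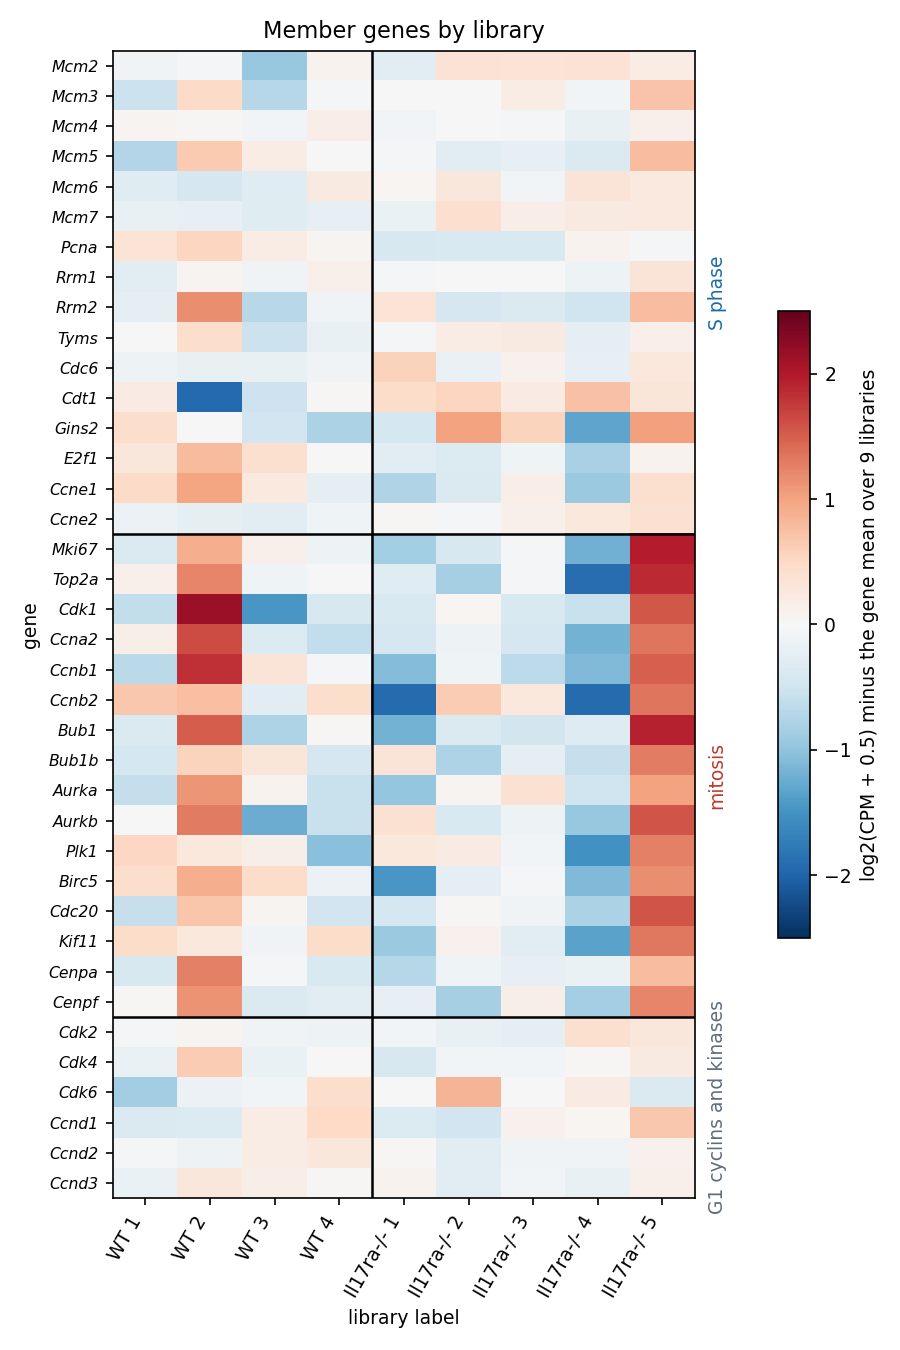
Each cell is the log2(CPM + 0.5) of a member (vertical axis) in a library (horizontal axis, by label and replicate number) minus that gene's mean over the 9 libraries. The mitotic block is red in WT2 and Il17ra-/- 5, whereas most cells of the S-phase and G1 blocks are paler.

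The G1 cyclins and kinases had the highest median level per length of the 3 member sets. Cdk4, the kinase partner of the D-type cyclins, had a mean of 29.6 RPKM (CPM per kilobase of exon), Ccnd2 10.1 and Ccnd3 9.65, both D-type cyclins. Ccnd1, the D-type cyclin that growth factors induce, stood at 6.60 RPKM and Cdk2, the partner of cyclins E and A, at 3.30. Cdk6, the other D-cyclin kinase, was the lowest of the 6 at 0.402 RPKM.

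None of these 6 genes was called. Log2 fold changes ran from -0.16 (Cdk4, SE 0.17) to 0.31 (Cdk6, SE 0.32), with adjusted p from 0.607 to 0.986 by edgeR. The value of Cdk6 was 0.063 without Il17ra-/- 2, 0.11 without WT1 and 0.57 without WT4. The approximate 95% intervals of all 6 lay within a 2-fold change in either direction. Cdk4 was at 83.9, 147, 83.6 and 94.0 CPM in WT1 to WT4 and at 70.8, 89.7, 89.7, 96.6 and 109.5 CPM in Il17ra-/- 1 to 5. WT2 was the highest library, and the groups overlapped. Exons of Ccnd1 and Cdk4 overlap genes on the opposite strand over 23.4% and 19.7% of their length (LTO1 and Tspan31), and reads there cannot be assigned by strand.

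Among the S-phase members, Pcna and E2f1 had the smallest p-values, with lower means under the label Il17ra-/-. Pcna, the sliding clamp that holds DNA polymerase on its template (chr2:132249162-132253314, minus strand), was at 61.0, 69.2, 54.5 and 49.9 CPM in WT1 to WT4. In Il17ra-/- 1 to 5 it was at 36.3, 36.6, 36.4, 50.9 and 46.4 CPM. The groups overlapped by 1 library, since Il17ra-/- 4 lay above WT4. The log2 fold change was -0.51 (SE 0.14, edgeR adjusted p = 0.0711). Without Il17ra-/- 4 it was -0.59 and passed (adjusted p = 0.0477), and DESeq2 gave -0.50 with an adjusted p of 0.0194. Over all 19 alternative fits it ran from -0.59 to -0.37, and Pcna was called in 2 of them.

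E2f1, a transcription factor that switches on replication genes (chr2:154559407-154569892, minus strand), was at 19.2, 27.5, 20.8 and 15.6 CPM in WT1 to WT4 and at 12.8, 12.2, 14.5, 8.75 and 16.7 CPM in Il17ra-/- 1 to 5. Only WT4 lay inside the range of the other group. The log2 fold change was -0.67 (SE 0.20, edgeR adjusted p = 0.0962), and DESeq2 gave an adjusted p of 0.0347. Over all 19 alternative fits it ran from -0.78 to -0.50, and E2f1 was called in 1 of them.

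Of the 6 helicase subunits Mcm2 to Mcm7, 4 had log2 fold changes above 0 and 2 below, and none was called. Mcm7 (chr5:138164583-138172422, minus strand) was at 15.1, 14.8, 13.8 and 14.8 CPM in WT1 to WT4 and at 15.3, 23.3, 19.3, 20.2 and 20.6 CPM in Il17ra-/- 1 to 5, so that the groups did not overlap, by the narrow gap between WT1 and Il17ra-/- 1. Its log2 fold change was 0.43 (SE 0.14, edgeR adjusted p = 0.133). With WT2 and Il17ra-/- 1 both left out it was 0.52 and passed (adjusted p = 0.0364). Over all 19 alternative fits it ran from 0.37 to 0.52, and Mcm7 was called in 1 of them. Exons of Mcm7 overlap other genes over 12.6% of their length, mainly Ap4m1 on the opposite strand.

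Mcm6 was at 22.7, 20.9, 22.6 and 32.6 CPM in WT1 to WT4 and at 28.9, 34.2, 26.5, 35.0 and 33.1 CPM in the other group (log2 fold change 0.35, SE 0.15, edgeR adjusted p = 0.260). WT4 was high, inside the range of the libraries labelled Il17ra-/-, and the other 3 lay below it. The other subunits gave values of 0.44 (Mcm2), 0.35 (Mcm3), -0.07 (Mcm4) and -0.06 (Mcm5), with adjusted p from 0.404 to 0.948. Mcm2 was at 0.25 without WT3, and Mcm3 was at 0.18 without Il17ra-/- 5, 0.19 without WT3 and 0.64 without WT2. Mcm4 had a mean of 8.52 RPKM and Mcm2, a subunit of the same complex, 1.05 RPKM.

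Groups did not overlap for 3 of the 38 members (7.89%, against 9.16% of all genes tested), all 3 of them S-phase members with higher levels under the label Il17ra-/- (4.62% of all genes) and none with lower levels (4.54%). Beside Mcm7 these were Cdt1 and Ccne2, and the 3 made up 18.8% of the 16 S-phase members. Cdt1, which loads the helicase onto origins with Cdc6, was at 2.85, 0.262, 1.54 and 2.47 CPM in WT1 to WT4 and at 3.53, 3.76, 2.89, 4.34 and 3.09 CPM in Il17ra-/- 1 to 5. WT2 was the lowest library, and the log2 fold change was 0.98 (SE 0.50, edgeR adjusted p = 0.353). Ccne2, an E-type cyclin, lay between 1.90 and 2.21 CPM in WT1 to WT4 and between 2.38 and 3.32 CPM in the others (0.43, SE 0.31, adjusted p = 0.525), and 17.4% of its exon length overlaps Ints8. Ccne1, the other E-type cyclin, had a log2 fold change of -0.90 (SE 0.60, adjusted p = 0.487) with overlapping groups.

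None of the 3 members that supply nucleotides was called. Rrm1 and Rrm2 code for the large and small subunits of ribonucleotide reductase, and Tyms for thymidylate synthase. Their log2 fold changes were 0.08, -0.16 and 0.10 (SE 0.13, 0.41 and 0.22), with adjusted p of 0.809, 0.882 and 0.863. Cdc6 had 0.38 (SE 0.40). Gins2, a subunit of the active helicase, had 0.69 (SE 0.61), but 67.3% of its exon length overlaps Gse1 on the opposite strand. The 95% intervals of 9 of the 16 S-phase members lay within a 2-fold change, and those of the other 7 did not.

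**Figure D2:**
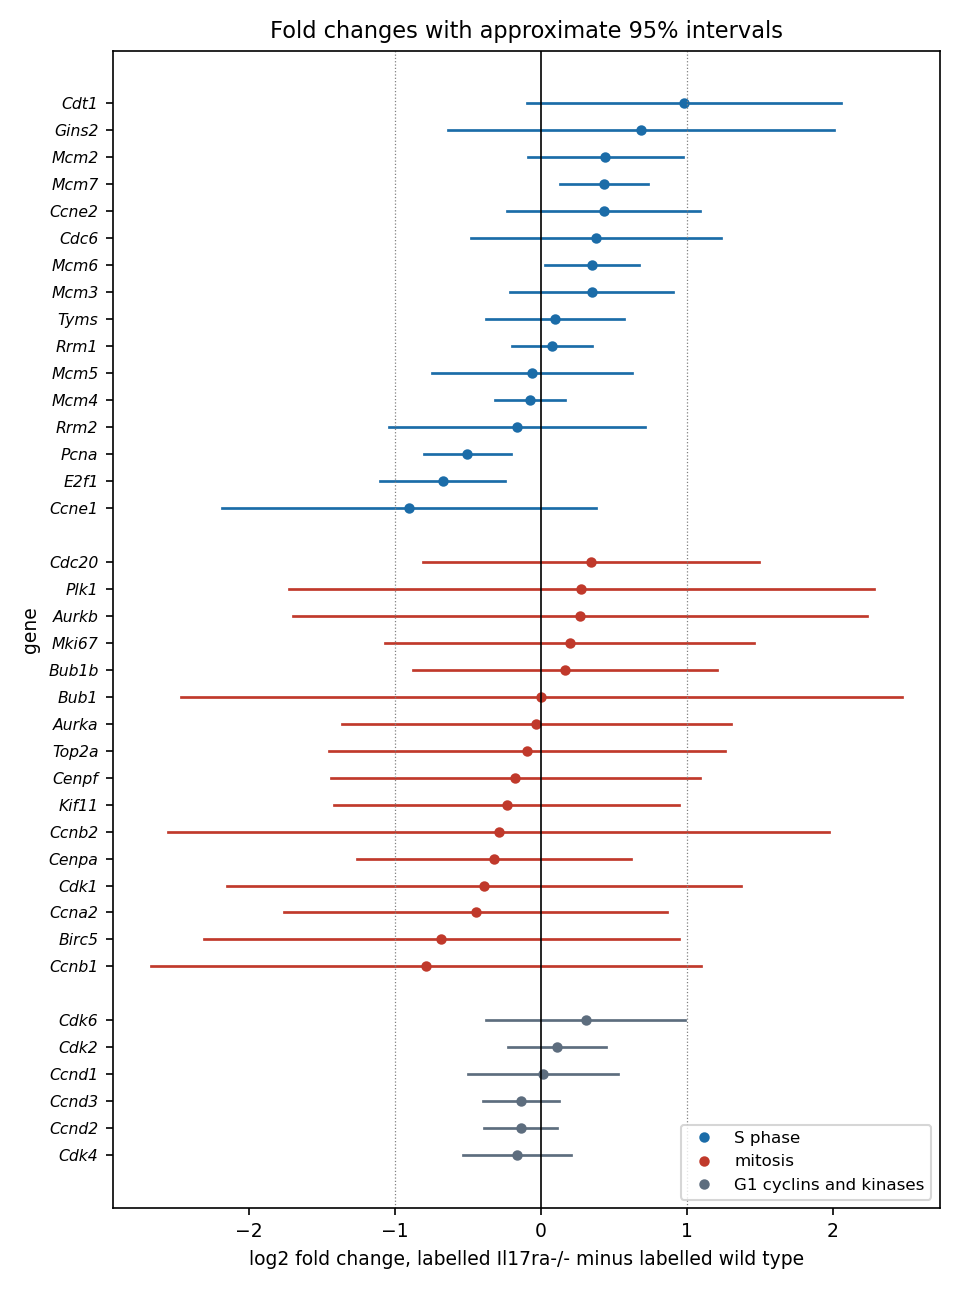
Points are log2 fold changes (horizontal axis, labelled Il17ra-/- minus labelled wild type) of the 38 members (vertical axis) and bars are approximate 95% intervals, with dotted lines at a 2-fold change. The bars of all 16 mitotic members cross a dotted line, and those of the 6 G1 members stay between both.

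Mitotic members differed between libraries of the same label far more than between the labels. Their summed level was 34.3, 90.2, 34.3 and 30.9 CPM in WT1 to WT4 and 23.8, 30.0, 33.1, 14.8 and 119 CPM in Il17ra-/- 1 to 5. WT2 and Il17ra-/- 5 stood above all others in their groups, at 2.72 and 4.66 times the mean of the rest, and Il17ra-/- 4 was lowest. The groups overlapped, at 47.5 ± 28.6 CPM (SD, n = 4) and 44.1 ± 42.3 CPM (SD, n = 5). The S-phase sums, 218, 261, 204 and 227 CPM in WT1 to WT4 and 202, 220.1, 211, 215 and 260.2 CPM in Il17ra-/- 1 to 5, had the same libraries on top, at 1.21 and 1.23 times the mean of the rest. Of 16 mitotic members, 14 had WT2 and Il17ra-/- 5 as the highest 2 of all 9 libraries. The same was so for 3 of 16 S-phase members, 1 of 6 G1 members, 21 of 39 further mitotic genes and 8 of 39 further replication genes. The share of all genes tested with this pair on top was not counted.

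Mki67 codes for the Ki-67 protein that coats mitotic chromosomes and is used as a marker of cycling cells (chr7:135689784-135716361, minus strand). It was at 4.43, 11.3, 6.37 and 5.25 CPM in WT1 to WT4 and at 3.03, 4.25, 5.60, 2.25 and 24.1 CPM in Il17ra-/- 1 to 5. The highest 2 libraries carried different labels, and the log2 fold change was 0.20 (SE 0.59, edgeR adjusted p = 0.903). Top2a, the topoisomerase that untangles sister chromatids, was at 5.94, 13.2, 5.03 and 5.36 CPM in WT1 to WT4 and at 4.27, 2.81, 5.26, 1.08 and 21.1 CPM in Il17ra-/- 1 to 5. Its groups overlapped in the same way (-0.10, SE 0.63, adjusted p = 0.959).

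Cdk1 is the kinase that drives entry into mitosis with cyclins A and B (chr10:69335146-69352938, minus strand). It was at 0.985, 9.70, 0.335 and 1.23 CPM in WT1 to WT4 and at 1.25, 1.87, 1.25, 1.06 and 6.20 CPM in Il17ra-/- 1 to 5. WT2 held 11.4 times the mean of the other libraries of its label, and Il17ra-/- 5 held 4.57 times that of its own. Its log2 fold change was -0.39 (SE 0.82, adjusted p = 0.856), and 1.45 without WT2 (edgeR adjusted p between 0.318 and 0.943 over the fits that left out 1 library). Ccna2 and Ccnb1, the A- and B-type cyclins that bind Cdk1, were at 9.74 and 4.98 CPM in WT2 and at 7.85 and 3.82 CPM in Il17ra-/- 5, with no other library above 3.15 and 1.42 CPM.

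Ccnb2, another B-type cyclin, was at 2.52, 2.69, 1.09 and 2.06 CPM in WT1 to WT4 and at 0, 2.42, 1.79, 0 and 4.31 CPM in Il17ra-/- 1 to 5. A count of 0 allowed up to 0.0763 CPM in Il17ra-/- 1 and 0.0813 CPM in Il17ra-/- 4. Its annotated copy Ccnb2-ps was at 2.90 and 1.27 CPM in these 2 libraries and at a mean of 2.07 CPM over all 9, so the levels of Ccnb2 are uncertain. Pcna-ps2, a copy of Pcna, had a mean of 0.403 CPM, and the 4 other annotated copies of members were at or near 0.

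The spindle checkpoint, which delays the separation of chromosomes until they are attached, was represented by Bub1 and Bub1b, and its target by Cdc20. Bub1 was at 0.383, 2.72, 0.168 and 0.659 CPM in WT1 to WT4 and at 0, 0.383, 0.323, 0.406 and 3.79 CPM in Il17ra-/- 1 to 5, with 1 high library in each group. The mitotic kinases Aurka, Aurkb and Plk1 reached 3.44, 3.61 and 2.92 CPM in Il17ra-/- 5. They were at 3.70, 2.88 and 1.21 CPM in WT2. Plk1 had no count in Il17ra-/- 4. Exons of Plk1 and of Ccna2 overlap genes on the opposite strand over 7.09% and 12.5% of their length.

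Birc5, the survivin subunit of the Aurora B complex, Kif11, a spindle motor, Cenpa, the centromeric histone, and Cenpf, a kinetochore protein, also had Il17ra-/- 5 as the highest library of its label, at 3.18, 6.93, 6.08 and 5.04 CPM. Kif11 was an exception in the other group, where WT2 held 0.98 times the mean of the rest. Plk1 was the other exception, with WT1 above WT2. At least 2 times the mean of the other libraries of the label was reached in Il17ra-/- 5 by 16 of 16 mitotic, 3 of 16 S-phase and 0 of 6 G1 members, and in WT2 by 11, 2 and 0. How many of all genes tested reached this was not counted.

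The coefficient of variation over the 5 libraries labelled Il17ra-/- had a median of 94.3% for mitotic, 17.3% for S-phase and 18.1% for G1 members, where counting alone would give about 10.3%, 5.35% and 2.23%. Without Il17ra-/- 5 the mitotic median was 54.4% and the S-phase median 16.6%. The contrast was smaller over WT1 to WT4, where the medians were 62.2% for mitotic, 27.1% for S-phase and 21.4% for G1 members. Without WT2 the mitotic median was 35.3% and the S-phase median 21.3%. Mitotic members were less abundant, at a median of 0.588 RPKM against 1.82 for S-phase and 8.13 for G1 members.

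**Figure D3:**
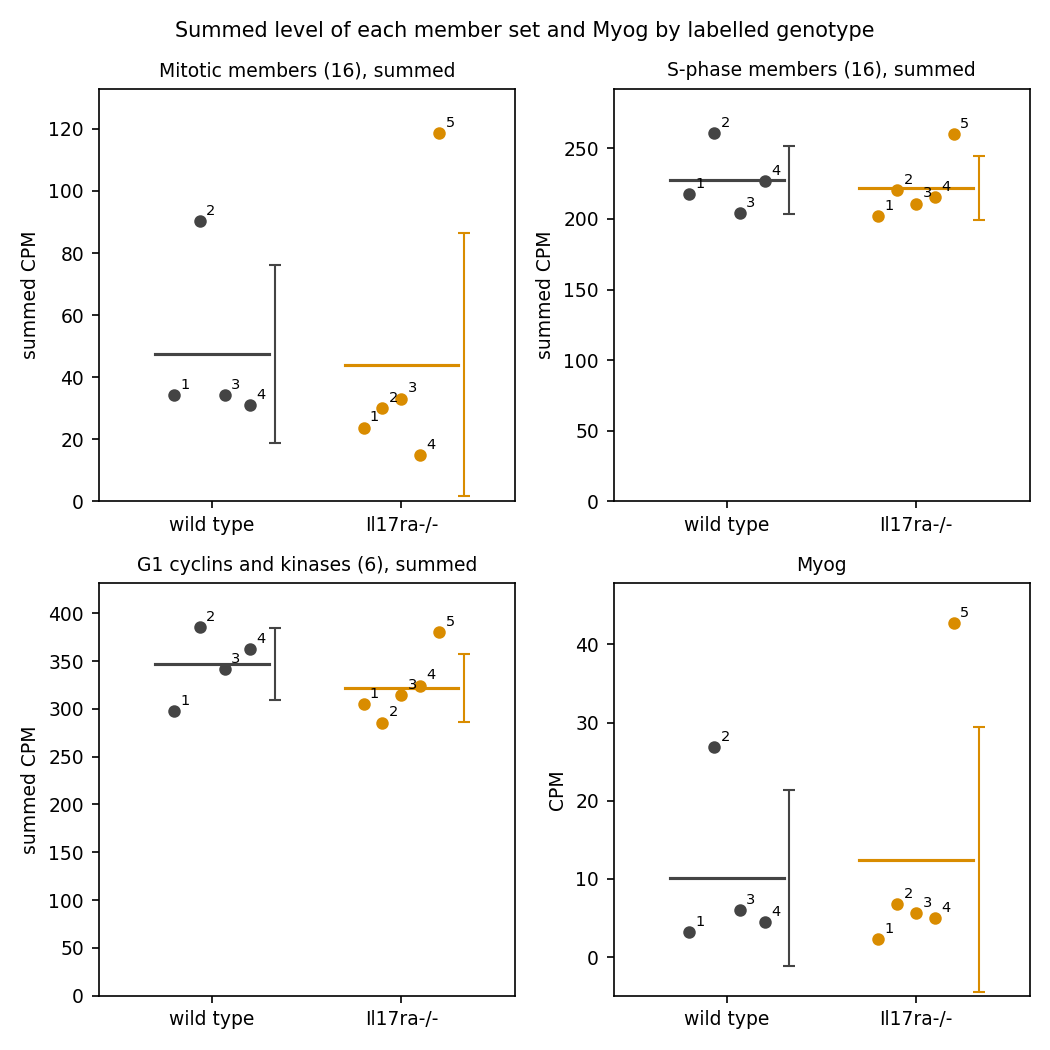
Points are libraries, numbered by replicate, with summed CPM of each member set or CPM of Myog on the vertical axis and the labelled genotype on the horizontal axis. Lines are group means and bars SD (n = 4 and n = 5), and WT2 and Il17ra-/- 5 lie far above the rest for the mitotic sum and for Myog, which is 1 of 8 satellite cell and myoblast markers and was chosen after its values were seen.

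No mitotic member was called, and adjusted p ran from 0.707 to 0.999 by edgeR. The 95% interval of each of the 16 reached past a 2-fold change in at least 1 direction, so that a change of that size in that direction was not excluded. Log2 fold changes ran from -0.79 (Ccnb1, SE 0.88) to 0.35 (Cdc20, SE 0.53). Their median of -0.13 moved to -0.90 without Il17ra-/- 5 and to 0.40 without WT2. With both left out, a choice made after the values were seen, it was -0.27, and 0 of 38 members were called.

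Myog, the factor that starts the differentiation of myoblasts, had its highest levels in the same libraries, the only 1 of the 8 satellite cell and myoblast markers for which these were the highest 2 of all 9. It was at 3.20, 26.8, 5.98 and 4.44 CPM in WT1 to WT4 and at 2.31, 6.82, 5.60, 5.01 and 42.7 CPM in Il17ra-/- 1 to 5. Pax7 was at 34.6, 24.2, 42.0 and 30.8 CPM in WT1 to WT4 and at 68.2, 55.6, 69.5, 65.9 and 53.8 CPM in Il17ra-/- 1 to 5, lowest within each label in WT2 and Il17ra-/- 5. Other markers of the list followed neither gene. Myod1 was at 0.87 times the mean of the rest of its label in WT2 and 1.43 times in Il17ra-/- 5. Myf5 was at 1.02 times in WT2 and 0.65 times in Il17ra-/- 5. The sum of the 8 satellite cell and myoblast markers was 159 CPM in WT2, inside the range of its label, and 260.0 CPM in Il17ra-/- 5, also inside. Leukocyte markers summed to 25.8 CPM in WT2, the lowest of its label, and to 20.9 CPM in Il17ra-/- 5. The part of these cells in the mitotic levels was not tested.

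A further 103 genes of the same pathway gave 4 calls (3.88%, against 3.06% of all genes). Cdkn1a, Slbp and Wee1 were lower and Cdc25b was higher under the label Il17ra-/-, and the groups did not overlap for any of the 4. The median log2 fold change of the 103 was -0.02. Their lists were written from textbook knowledge, with earlier results of these data known.

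Cdkn1a, the inhibitor of cyclin-dependent kinases that p53 induces (chr17:29090976-29100727, plus strand), was at 335, 435, 327 and 299.9 CPM in WT1 to WT4 and at 109, 96.2, 115, 116 and 116 CPM in Il17ra-/- 1 to 5. Every library labelled Il17ra-/- lay below every library labelled wild type. The log2 fold change was -1.66 (SE 0.12, edgeR adjusted p = 2.16e-05), and it was called in all 19 alternative fits. Its exons overlap a gene model on the opposite strand over 7.68% of their length, and those of Slbp, described next, over 7.80%. No other gene of the 10 inhibitors and retinoblastoma proteins was called. Cdkn2c, an inhibitor of Cdk4 and Cdk6, had 0.54 (SE 0.18, adjusted p = 0.145) with groups that did not overlap. Cdkn1b, an inhibitor of Cdk2, had 0.18 (adjusted p = 0.438), and Rbl1, a retinoblastoma relative, 0.35 (adjusted p = 0.452).

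Slbp, which binds the stem-loop of replication-dependent histone mRNAs (chr5:33634952-33652574, minus strand), was at 42.8, 57.9, 55.7 and 49.3 CPM in WT1 to WT4 and at 18.0, 21.5, 23.9, 22.9 and 25.5 CPM in Il17ra-/- 1 to 5. The log2 fold change was -1.20 (SE 0.13, edgeR adjusted p = 0.000257), called in all 19 alternative fits, and the other 38 replication genes outside the members were not called. Pole, the catalytic subunit of DNA polymerase epsilon, had 1.00 (SE 0.33, adjusted p = 0.137). Orc5 and Orc6, subunits of the origin recognition complex, had -0.37 and -0.55 (adjusted p = 0.182 and 0.186), and Orc6 had -0.25 without WT2.

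Wee1, the kinase that holds Cdk1 inactive (chr7:110122046-110143286, plus strand), was at 27.2, 29.3, 37.98 and 37.2 CPM in WT1 to WT4 and at 16.6, 12.4, 11.7, 16.1 and 19.6 CPM in Il17ra-/- 1 to 5. Its log2 fold change was -1.11 (SE 0.17, edgeR adjusted p = 0.00251), and it too was called in all 19. Cdc25b, the phosphatase that removes the Wee1 mark from Cdk1 (chr2:131186949-131198497, plus strand), was at 8.32, 11.9, 9.38 and 9.78 CPM in WT1 to WT4 and at 18.3, 14.2, 16.4, 20.7 and 17.9 CPM in Il17ra-/- 1 to 5. Its log2 fold change was 0.83 (SE 0.16, edgeR adjusted p = 0.0117). It was called in 18 of the 19 alternative fits (adjusted p from 0.000129 to 0.0691) and missed the threshold with the replicate block. Both enzymes act on the Cdk1 protein, whose activity transcript levels do not show and which was not tested.

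Among the other 37 mitotic genes outside the members, none was called. Pttg1, securin, came nearest, at 33.7 to 58.3 CPM in WT1 to WT4 and 28.1 to 32.8 CPM in the others, without overlap (log2 fold change -0.58, SE 0.15, edgeR adjusted p = 0.0562). Zwint, a kinetochore protein, had -0.35 (adjusted p = 0.188). None of the 15 E2F and MuvB genes was called. Of the 15, 9 had log2 fold changes above 0 and 6 below. E2f4 and E2f5, which are among the repressor E2Fs, had -0.31 and -0.51 (adjusted p = 0.212 and 0.134), both without overlap. E2f4 had -0.18 without WT2. Tfdp2, a dimer partner of E2Fs, had 0.48 (adjusted p = 0.154), and Lin54, the MuvB subunit that binds the CHR element, 0.59 (adjusted p = 0.178).

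**Figure D4:**
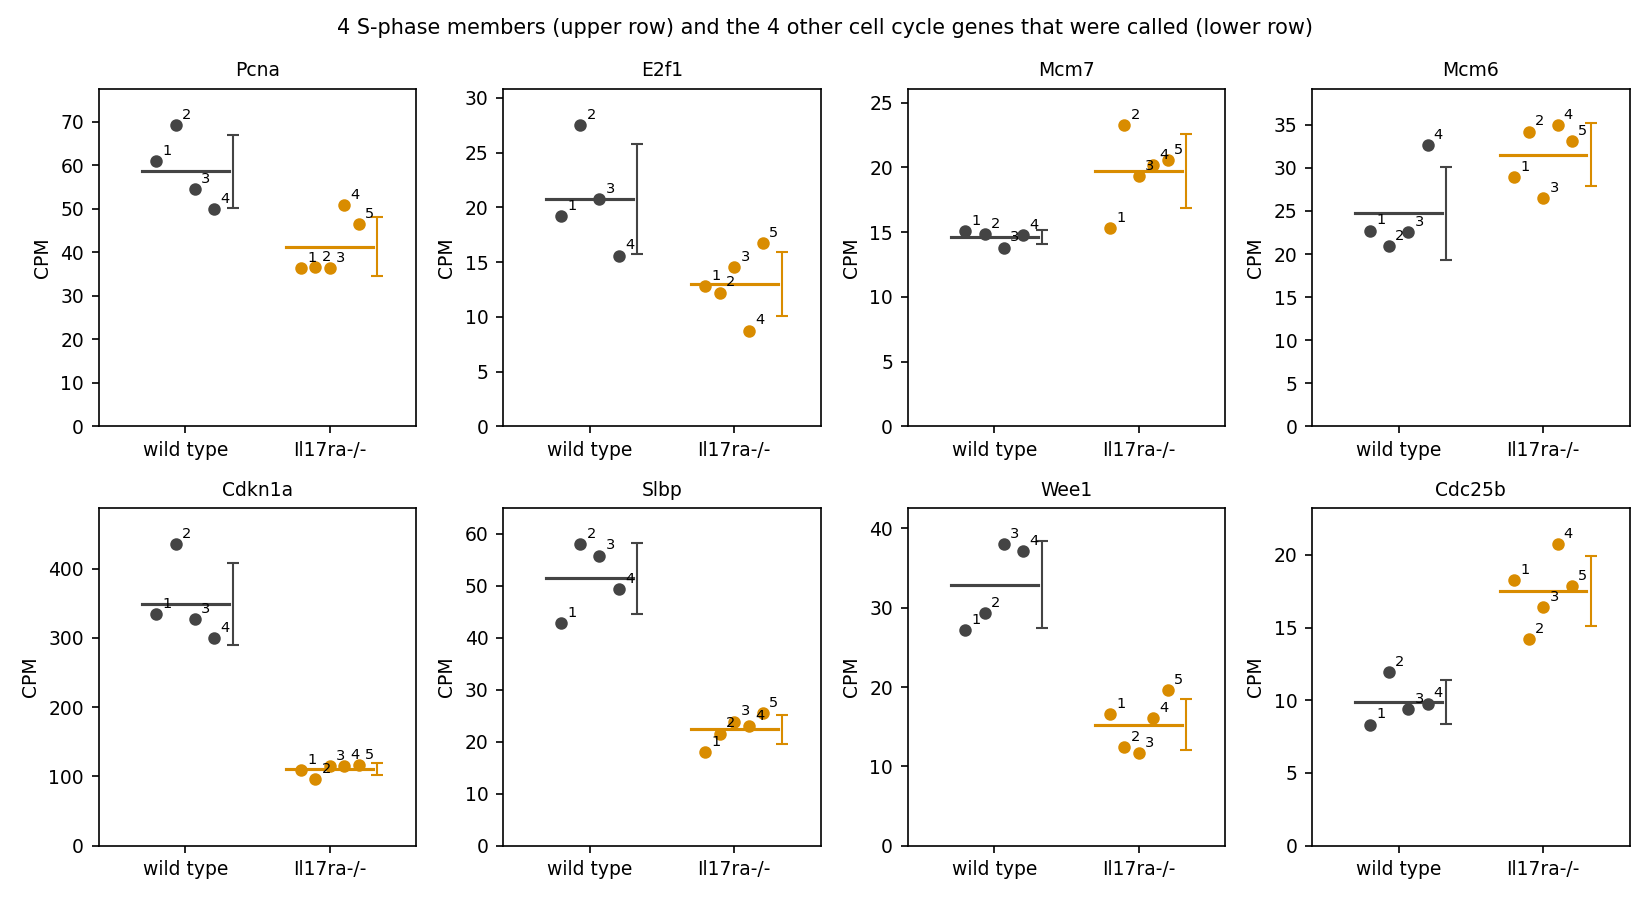
Points are libraries, numbered by replicate, with CPM on the vertical axis and the labelled genotype on the horizontal axis, and lines and bars are means and SD (n = 4 and n = 5). The upper panels are the 4 S-phase members with an unadjusted p under 0.05, none of them called, and the lower panels are Cdkn1a, Slbp, Wee1 and Cdc25b, whose groups do not overlap.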

How the data were processed

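Quadriceps RNA of 9 libraries was measured by RNA sequencing (TruSeq v2 kit, RNA integrity above 8.0, stated depth of 30 M reads, per the labels' protocols). The authors deposited raw counts, whole numbers per gene from featureCounts 1.6.0 (per the file headers) over GENCODE M21 exons without strand. STAR was the aligner, per the submitters' processing notes, and its version was not given. Reads of overlapping genes or near-identical copies can therefore be lost or misassigned.

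The counts were filtered with filterByExpr (16039 genes left), scaled with TMM and tested with edgeR 4.0.16 in R 4.3.3 (quasi-likelihood, two-sided, genotype label as the only term, Benjamini-Hochberg over all genes, called under 0.05). SE is the log2 fold change over the root of F, and intervals use a t quantile. RPKM divides CPM by exon length. A count of 3 was worth 0.0638 to 0.0983 CPM, and such limits cover counting error only.

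The members and lists were chosen with earlier results of these data known. Named genes were all members, Il17ra, of each further pathway list every called gene and up to 4 with the smallest p, and of marker lists the most abundant and those near 0. Alternatives were other scalings and filters, DESeq2 1.42.0, limma 3.58.1 (voom), leaving out libraries and a replicate block. The procedure was tested on simulated data.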

Additional observations from a re-analysis of the deposited data

Results flagged for a closer look

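In 18 of 108 combinations of a named gene and a labelled genotype (16.7%), the highest library stood apart from the others of its label by a gap that takes up most of the group's range. Gaps at the low end were searched as well. For normally distributed values, which CPM need not be, chance gives a gap at either end in about 1 of 20 groups. The genes are not independent, and the share of all genes tested with such a gap was not counted. The high library was Il17ra-/- 5 in 11 cases, WT2 in 6 and WT4 in 1. In Il17ra-/- 5 the mitotic members Mki67 (24.1 CPM), Top2a (21.1 CPM), Cdk1 (6.20 CPM), Ccna2 (7.85 CPM), Ccnb1 (3.82 CPM), Bub1 (3.79 CPM), Cdc20 (8.84 CPM) and Cenpa (6.08 CPM) stood apart, and so did the S-phase members Mcm3 (17.3 CPM), Mcm5 (10.9 CPM) and Rrm1 (42.6 CPM). In WT2 these were Top2a (13.2 CPM), Cdk1 (9.70 CPM), Cenpa (8.72 CPM), Cdk4 (147 CPM), E2f4 (56.8 CPM) and Orc6 (28.7 CPM). Mcm6 stood apart in WT4 at 32.6 CPM, where the next library of its label was at 22.7 CPM.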

How the results depend on the processing

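The count of genes called was 491, 1026 by DESeq2 and 275 to 567 when 1 library was left out in turn. Members called were 0, or 2 by DESeq2 (Pcna and E2f1, both S-phase), 1 with WT2 and Il17ra-/- 1 left out (Mcm7, S-phase) and 0 to 1 with 1 library left out (Pcna, without Il17ra-/- 4), and no mitotic or G1 member was called in any of these fits. The median log2 fold change of mitotic members ran from -0.90 to 0.40 when 1 library was left out, and was 0.49 with WT2 and Il17ra-/- 1 left out and -0.82 with the replicate block. Of 1025 values of 54 named genes over 19 alternatives, 938 kept direction and side of the threshold, 77 changed sign (20 genes, all members and none called), 9 passed newly and 1 no longer passed. Libraries with the same number did not deviate together (r from -0.02 to 0.06 for the 4 shared numbers), and not every library correlated best with its own number. With the replicate block, which drops Il17ra-/- 5, 366 genes and 0 members were called, and Cdc25b missed the threshold at 0.83 (adjusted p = 0.0691). Pttg1 passed without a filter, with a mean of at least 1 CPM, with DESeq2 and without WT4 (adjusted p 0.0362, 0.0496, 0.0116 and 0.0225), and Pole with DESeq2 (1.01, adjusted p = 0.0440). Sign changes of log2 fold changes were as follows. With WT2 and Il17ra-/- 1 left out: Mcm5 0.22, Rrm2 0.33, Top2a 0.47, Cdk1 1.604, Ccna2 0.52, Ccnb1 0.50, Ccnb2 0.17, Aurka 0.89, Cenpa 0.46, Cenpf 0.49, Cdk4 0.15 and Ccnd1 -0.011. With WT2 and Il17ra-/- 5 left out, chosen after seeing the data: Rrm2 0.14, Mki67 -0.49, Cdk1 0.67, Bub1 -0.53, Bub1b -0.14, Aurka 0.23, Plk1 -0.23 and Ccnd1 -0.30. With the replicate block: Mki67 -0.84, Bub1 -1.69, Bub1b -0.38, Aurkb -0.041, Plk1 -0.81, Cdc20 -0.30 and Ccnd1 -0.16. With limma voom: Mki67 -0.23, Cdk1 0.48, Bub1 -0.85, Bub1b -0.0091, Aurka 0.082, Plk1 -0.44 and Ccnd1 -0.0039. With library totals alone: Mcm5 0.0045 and Aurka 0.038. Bub1 was at -0.00074 with RLE scaling, -0.019 with upper quartile scaling and -0.0044 with DESeq2. With 1 library left out the values ran over these ranges: Mcm5 -0.33 to 0.20, Rrm2 -0.43 to 0.42, Tyms -0.042 to 0.31, Mki67 -0.84 to 0.55, Top2a -1.12 to 0.34, Cdk1 -1.16 to 1.45, Ccna2 -1.16 to 0.40, Ccnb1 -2.06 to 0.24, Ccnb2 -0.97 to 0.031, Bub1 -1.79 to 1.28, Bub1b -0.37 to 0.41, Aurka -0.45 to 0.66, Aurkb -0.58 to 1.47, Plk1 -0.32 to 0.60, Cdc20 -0.37 to 0.73, Kif11 -0.96 to 0.012, Cenpa -0.64 to 0.31, Cenpf -0.80 to 0.41, Cdk4 -0.24 to 0.068, Ccnd1 -0.19 to 0.21. Without a change of sign, 16 more named genes moved by over 1.5 times, none of them called: Mcm2 0.25 to 0.56, Mcm3 0.18 to 0.64, Mcm4 -0.11 to -0.027, Rrm1 0.0034 to 0.14, Cdc6 0.22 to 0.47, Cdt1 0.63 to 1.31, Gins2 0.44 to 1.04, Ccne1 -1.22 to -0.57, Birc5 -1.57 to -0.39, Cdk2 0.0079 to 0.18, Cdk6 0.063 to 0.57, Ccnd2 -0.20 to -0.061, Ccnd3 -0.21 to -0.060, Rbl1 0.19 to 0.45, E2f4 -0.36 to -0.18 and Orc6 -0.66 to -0.25. The cause of these changes was not tested. Counting alone would give a median coefficient of variation of 10.3% for mitotic members in the libraries labelled Il17ra-/-, where the median observed was 94.3%. In those labelled wild type, counting would give 10.9% and the median observed was 62.2%.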

Other observations

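Of the 103 further cell cycle genes, 12 (11.7%) had groups that did not overlap, against 9.16% of all genes tested. The 3 of these not described above were chosen for mention after their values were seen. Prim1, the catalytic subunit of primase, was at 3.54 to 6.11 CPM in WT1 to WT4 and 6.42 to 8.79 CPM in Il17ra-/- 1 to 5 (edgeR adjusted p = 0.276). Chaf1a, a subunit of the chromatin assembly factor that deposits histones on new DNA, was at 2.66 to 3.01 CPM and 3.18 to 7.24 CPM (edgeR adjusted p = 0.302), and 52.5% of its exon length overlaps Ubxn6 on the opposite strand. Cdc25a, a phosphatase that activates cyclin-dependent kinases, was at 3.34 to 7.40 CPM and 7.86 to 9.20 CPM (edgeR adjusted p = 0.249). All 3 had higher means under the label Il17ra-/-, and none was called.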
